A study of Macaca mulatta with 30 samples.

Results

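NF-κB is a family of transcription factors that is held in the cytoplasm by inhibitor proteins until an inflammatory signal, such as tumor necrosis factor or interleukin-1, leads to the breakdown of the inhibitor. The freed dimers enter the nucleus and switch on cytokines, chemokines, adhesion molecules and survival genes, and some of the inhibitors are themselves targets, which closes a feedback loop. Glucocorticoids are known to dampen this pathway, and the gene of the main inhibitor, IκBα, is a textbook glucocorticoid target.

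The gene set described here holds 10 genes of this family. The inhibitors are NFKBIA (IκBα), NFKBIE (IκBε), BCL3 (a nuclear member of the IκB family), TNFAIP3 (A20, a ubiquitin-editing brake on the pathway) and TNIP1 (a partner of A20). The DNA-binding subunits are NFKB1 (p105/p50), NFKB2 (p100/p52), REL (c-Rel), RELA (p65) and RELB. The members were taken by gene symbol, and 9 of the 10 matched an identifier in both count tables, of 30246 identifiers in the lung table and 32386 in the hippocampus table. All 9 passed the filter on low counts in both tissues. BCL3 was not matched and is named only.

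The libraries came from fetal rhesus macaques, wild type in the lung labels, whose mothers received an intramuscular injection before preterm delivery. The clinical drug (Celestone, a mixture of betamethasone phosphate and betamethasone acetate) was given at 0.25 mg/kg, betamethasone acetate alone (Beta-Ac) at 0.125 mg/kg, and controls received saline. Whole lung was sequenced 4 hours or 5 days after the clinical drug, 6 hours or 5 days after Beta-Ac, and in saline controls, with 3 fetuses in each of the 5 groups, all labelled with a gestational age of 124 to 130 days. The labels give no delivery time for the lung controls. Hippocampus was sequenced 5 days after treatment in 5 fetuses each for control, Beta-Ac and the clinical drug, at 130 to 136 days. Each tissue had 15 libraries, and 9 fetuses gave a library to both. The age labels of these 9 conflict, since the hippocampus labels put all of them at 131 to 136 days, above the lung range. In the hippocampus, the sample titles and the treatment fields of the labels name opposite drugs for the treated fetuses. Groups follow the titles here, which match the lung labels of the fetuses that the tissues share.

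Deposited read counts summed to between 14073002 and 45033799 per lung library and between 18280762 and 29301058 per hippocampus library. Levels are given below as CPM, the reads of a gene scaled to library size by the trimmed mean of M values (TMM). Errors are SD over fetuses, unless a standard error (SE) of a fold change is named. A gene was called when the edgeR quasi-likelihood test across all genes gave it a 1.5-fold or larger difference, with p below 0.05 and an adjusted p below 0.1. Lung epithelial markers summed to between 6167 and 16260 CPM in the lung libraries and to at most 4.36 CPM in the hippocampus libraries. Neuronal markers summed to between 660 and 1177 CPM in the hippocampus and to at most 2.70 CPM in the lung. In these bulk tissues, fewer cells of a type and less RNA per cell cannot be told apart.

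The first question was whether the members differed from control soon after each drug. In the lung 4 hours after the clinical drug, NFKBIA was 3.19-fold higher than in control, while RELB was 2.41-fold lower and NFKBIE 1.76-fold lower. These 3 of 9 measured members were called, where 7.4% of all genes tested were called in this comparison. By direction, 1 member was called higher against 3.46% of all genes, and 2 were called lower against 3.94%. At 6 hours after Beta-Ac, NFKBIA was the only member called, 1.98-fold higher than control, where 0.442% of all genes were called and 0.368% were called higher. The control libraries are the same in these comparisons.

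NFKBIA encodes the inhibitor that retains RELA-containing dimers in the cytoplasm. Its level in the control lungs was 138, 121 and 113 CPM. It reached 413, 360 and 413 CPM at 4 hours after the clinical drug and 172, 224 and 342 CPM at 6 hours after Beta-Ac. At 5 days it was 113, 109 and 153 CPM after the clinical drug and 111, 145 and 129 CPM after Beta-Ac. Every early library of either drug lay above every control, as 11.1% of all genes did after the clinical drug and 9.03% after Beta-Ac. Every 4-hour library also lay above every 6-hour library, as 11.7% of all genes did. The 5-day libraries overlapped the controls.

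The log2 fold change of NFKBIA against control was 1.67 (SE 0.21, adjusted p = 0.00021) after the clinical drug, with a 95% confidence interval from 1.22 to 2.12. After Beta-Ac it was 0.99 (SE 0.21, adjusted p = 0.066), with an interval from 0.55 to 1.43. The difference between the early groups of the drugs was itself called, at 0.69 (SE 0.20, adjusted p = 0.047). The Beta-Ac libraries were widely spread, with 1 fetus, at 342 CPM, near the lowest 4-hour library. Without that fetus, Beta-Ac replicate 3, the log2 fold change against control was 0.67 and the call was lost (adjusted p = 0.32). The Beta-Ac call was also lost without any 1 of the 3 controls, with adjusted p of 0.21, 0.18 and 0.16, whereas the log2 fold change then stayed between 0.92 and 1.05.

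RELB, the subunit that pairs mainly with p52 in the non-canonical arm of the pathway, went the other way. Control lungs had 12.4, 12.7 and 8.68 CPM. The clinical drug libraries at 4 hours had 3.73, 4.93 and 5.45 CPM, all below every other lung library. Beta-Ac libraries at 6 hours had 8.30, 9.84 and 8.63 CPM and overlapped the controls through the lowest control fetus.

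Against control the log2 fold change of RELB was −1.27 (SE 0.19, adjusted p = 0.00077) after the clinical drug. After Beta-Ac it was −0.33 (SE 0.18, adjusted p = 0.38), which was not called. The difference between the drugs' early groups was −0.94 (SE 0.19, adjusted p = 0.010).

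NFKBIE encodes IκBε, an inhibitor whose own gene is an NF-κB target. Its level was 23.6, 21.4 and 18.5 CPM in control lungs and 9.33, 13.2 and 13.7 CPM at 4 hours after the clinical drug. At 6 hours after Beta-Ac it was 16.4, 24.2 and 17.4 CPM. The 4-hour libraries were below all others in the lung. The same held for RELB, and 10.2% of all genes lay below control and 10.7% below the Beta-Ac group in this way. For NFKBIE, the 6-hour libraries lay on either side of the control range.

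For NFKBIE, the log2 fold change against control was −0.82 (SE 0.18, adjusted p = 0.0098) after the clinical drug and −0.12 (SE 0.17, adjusted p = 0.62) after Beta-Ac. The drugs' early groups differed by −0.69 (SE 0.18, adjusted p = 0.027). That difference dropped below the fold threshold without clinical drug replicate 1, at −0.53, and without Beta-Ac replicate 2, at −0.50. The genes of IκBα and IκBε, inhibitors of the same family, were therefore called in opposite directions in the same 3 libraries.

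Between the early groups of the drugs, 3 of 9 members were called, where 6.74% of all genes were called. The 1 called higher stands beside 2.62% of all genes and the 2 called lower beside 4.11%. The drug, the dose, the hour of delivery and the fetuses all differ between these groups and cannot be told apart. With only these 6 libraries in the fit none was called, at 0.69 for NFKBIA (adjusted p = 0.15), −0.69 for NFKBIE (adjusted p = 0.16) and −0.93 for RELB (adjusted p = 0.10).

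The summed level of lymphocyte markers was also lower in the libraries with low RELB and NFKBIE. The 2 markers that matched, of 5 searched, CD3E and MS4A1, summed to between 0.822 and 4.07 CPM at 4 hours after the clinical drug. They summed to between 4.77 and 9.40 CPM in controls and between 5.21 and 9.16 CPM at 6 hours after Beta-Ac. CD3E, part of the T cell receptor complex, was called lower at 4 hours, with a log2 fold change of −2.09 (SE 0.48, adjusted p = 0.014). MS4A1, a B cell surface protein, was −0.97 (SE 0.55, adjusted p = 0.26) and was not called. Neither marker was at 0 in a whole group. Macrophage markers summed to between 31.8 and 105.0 CPM at 4 hours and between 40.7 and 81.6 CPM in controls, without a common direction. CD163, the hemoglobin scavenger receptor, was called higher at 1.81, while CSF1R was −0.45 and CD68 −0.24, neither called. Lung epithelial markers summed to between 10281 and 16260 CPM at 4 hours and between 6167 and 9207 CPM in controls, and the surfactant gene SFTPC was called higher at 1.13. The part of these cell types in the values of NFKBIA, RELB and NFKBIE was not tested.

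**Figure D1:**
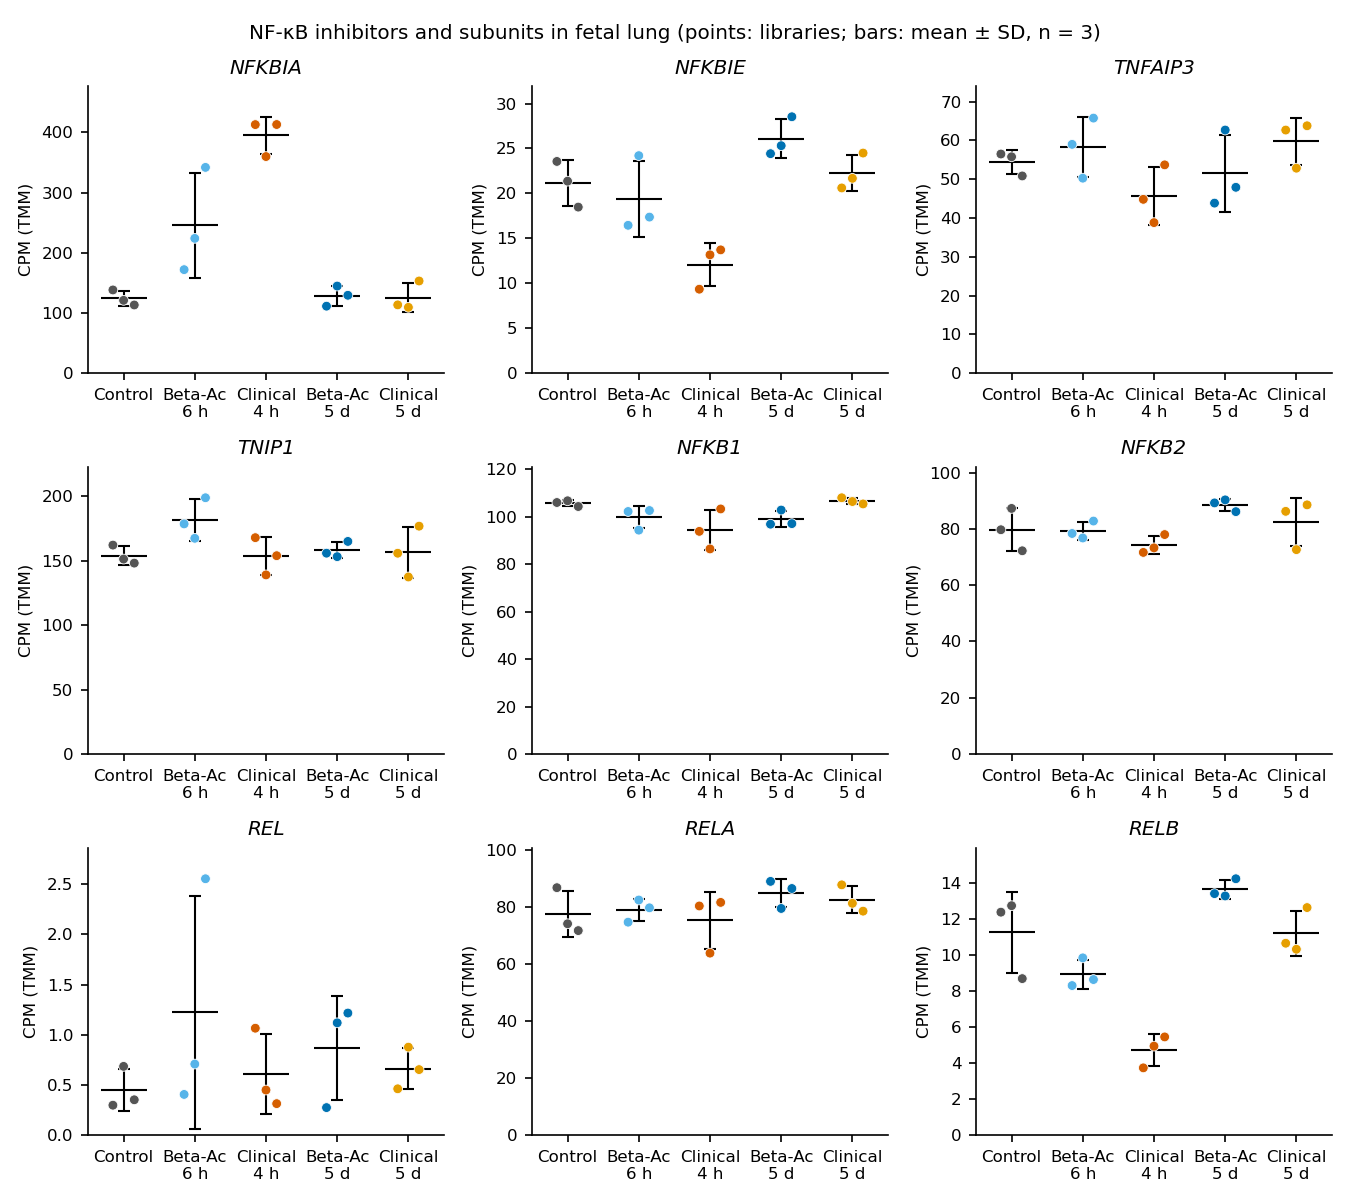
Level of each of the 9 measured NF-κB genes in the 15 lung libraries, in CPM from 0 on the vertical axis, by treatment and time. Points are fetuses and bars the mean ± SD of 3. NFKBIA stands above control in both early groups, RELB and NFKBIE are lowest at 4 hours after the clinical drug, and the remaining genes vary little between groups apart from the sparsely read REL.

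The other inhibitors among the members were not called early after treatment. TNFAIP3 was 56.5, 55.8 and 50.8 CPM in controls, 44.8, 38.8 and 53.7 CPM at 4 hours after the clinical drug and 59.0, 50.3 and 65.8 CPM at 6 hours after Beta-Ac. Its groups overlapped, and its log2 fold changes against control of −0.25 and 0.10 were not called. TNIP1 was 162.2, 151 and 148 CPM in controls and 179, 167 and 199 CPM at 6 hours after Beta-Ac. Those 3 libraries lay above every control, as 9.03% of all genes did, but the log2 fold change of 0.24 was under the fold threshold and its adjusted p was 0.31. At 4 hours after the clinical drug TNIP1 was 168, 139 and 154 CPM, on both sides of the control range.

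No subunit other than RELB was called early after either drug. RELA, the main activating subunit, had log2 fold changes against control of −0.04 after the clinical drug, with a 95% confidence interval from −0.27 to 0.19, and 0.03 after Beta-Ac, from −0.20 to 0.25. NFKB2, which encodes the usual partner of RELB, had −0.10 (interval −0.30 to 0.10) and −0.01 (interval −0.20 to 0.19). NFKB1 was 106, 107 and 104 CPM in controls and 93.8, 86.4 and 103 CPM at 4 hours after the clinical drug. Its 4-hour libraries lay below every control, as 10.2% of all genes did, with a log2 fold change of −0.16 (interval −0.33 to 0.00, adjusted p = 0.19). At 6 hours after Beta-Ac NFKB1 was 102, 94.4 and 103 CPM, again below every control, as 7.28% of all genes were, at −0.08 (adjusted p = 0.53). These 3 subunits ranged by at most 1.39-fold over all 15 lung libraries.

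REL, a subunit known mainly from lymphoid cells, was at the limit of what this depth can show in lung, between 0.274 and 2.56 CPM. The highest library was Beta-Ac replicate 3 at 6 hours, the same fetus that had the highest NFKBIA in its group. The log2 fold change of REL against control was 0.56 (interval −1.05 to 2.18) after the clinical drug and 1.46 (interval −0.12 to 3.05) after Beta-Ac. These wide intervals neither showed nor excluded a difference.

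**Figure D2:**
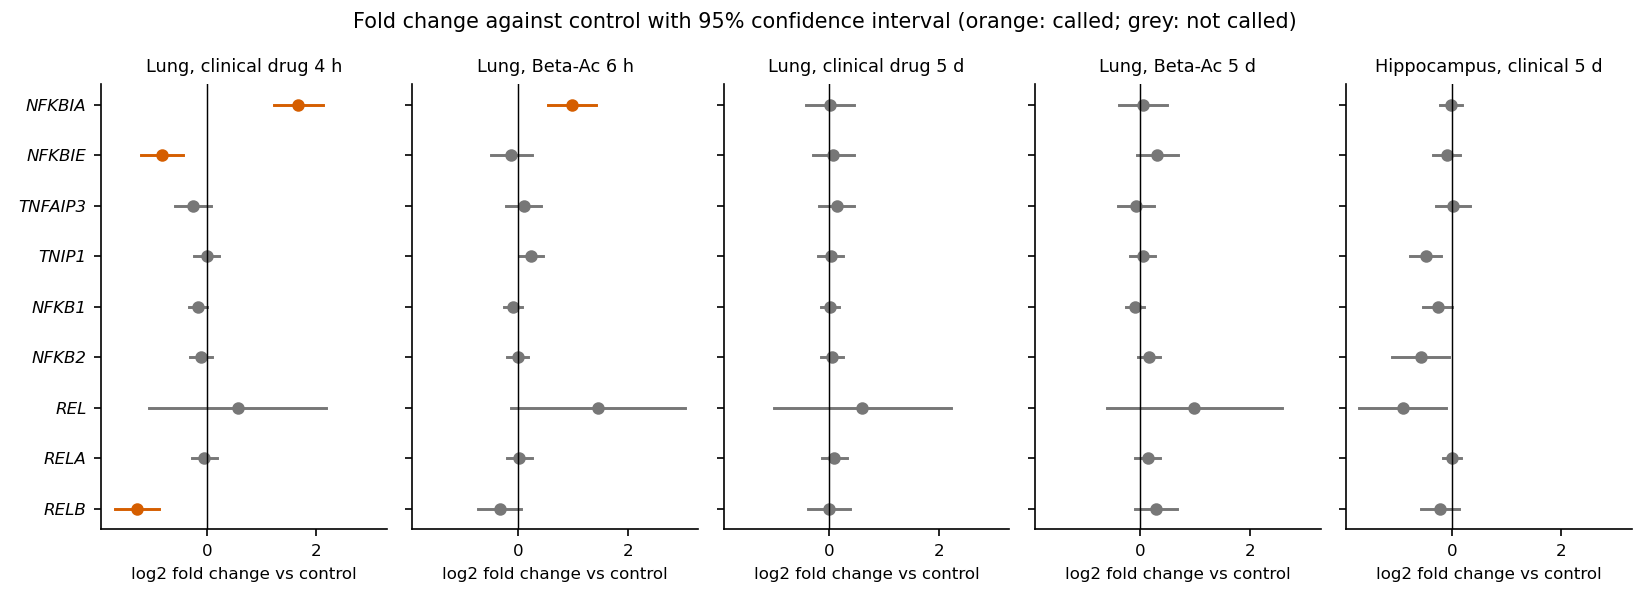
Log2 fold change of each gene against control, with its 95% confidence interval, for 4 lung groups and for the clinical drug in hippocampus. Orange marks called genes: NFKBIA at 1.67, RELB at −1.27 and NFKBIE at −0.82 in the 4-hour panel, and NFKBIA at 0.99 in the 6-hour panel.

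The second question was whether these values were still apart from control 5 days after treatment. None of the 9 members was called in either 5-day lung group by edgeR or DESeq2, and none had an unadjusted p under 0.05. Of all genes tested, 0% were called after the clinical drug and 0.00567% after Beta-Ac, and 4.39% and 6.42% had an unadjusted p under 0.05. At 5 days after the clinical drug, NFKBIA had a log2 fold change of 0.01 (95% confidence interval −0.42 to 0.45), RELB −0.01 (−0.39 to 0.38) and NFKBIE 0.08 (−0.30 to 0.45). After Beta-Ac the values were 0.05 (−0.39 to 0.49), 0.28 (−0.11 to 0.66) and 0.30 (−0.07 to 0.68).

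RELB was 10.6, 10.3 and 12.6 CPM at 5 days after the clinical drug, and 13.4, 13.3 and 14.2 CPM after Beta-Ac. NFKBIE was 20.6, 21.7 and 24.5 CPM after the clinical drug, and 24.4, 25.3 and 28.5 CPM after Beta-Ac. For both genes the 5-day Beta-Ac libraries lay above every control, as 5.73% of all genes did, without a call. The adjusted p was 0.78 for RELB and 0.77 for NFKBIE. NFKB1, at 96.9, 103 and 97.1 CPM, lay below every control, as 6.4% of all genes did, at −0.10 (adjusted p = 0.83).

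The early and late groups of each drug were then compared with each other, without the controls. After the clinical drug, the 4-hour and 5-day lungs differed in the same 3 genes, where 10.4% of all genes were called, 4.47% higher and 5.92% lower at 4 hours. NFKBIA did not overlap between these groups, as for 15.6% of all genes higher at 4 hours, and neither did RELB, NFKBIE and NFKB1, as for 13.5% lower at 4 hours. The log2 fold change was 1.66 (SE 0.21, adjusted p = 0.00018) for NFKBIA, −1.26 (SE 0.19, adjusted p = 0.00056) for RELB and −0.89 (SE 0.18, adjusted p = 0.0042) for NFKBIE. TNFAIP3 was −0.38 (SE 0.15, adjusted p = 0.084), under the fold threshold and with overlapping groups.

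After Beta-Ac, no member was called between 6 hours and 5 days by edgeR, where 0.261% of all genes were called. An unadjusted p under 0.05 was found for 3 members and 7.91% of all genes. The members were NFKBIA at 0.94 (SE 0.21, adjusted p = 0.11), RELB at −0.61 (SE 0.18, adjusted p = 0.27) and NFKBIE at −0.43 (SE 0.17, adjusted p = 0.48). The 6-hour and 5-day libraries did not overlap for these 3, nor for TNIP1 and NFKB2. NFKBIA and TNIP1 lay above, as 7% of all genes did, and RELB, NFKBIE and NFKB2 below, as 5.97% did. DESeq2 called NFKBIA and RELB in this comparison.

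Ordered by level, the lung groups ran for NFKBIA from the 4-hour clinical drug (395 ± 30.7 CPM, n = 3) through the 6-hour Beta-Ac group (246 ± 87.1) to the remaining groups, whose means lay between 124 and 128 CPM. The controls and the 5-day groups were not separated from each other by more than their spread. For RELB the order was 5-day Beta-Ac (13.6 ± 0.52 CPM), control (11.3 ± 2.24), 5-day clinical drug (11.2 ± 1.25), 6-hour Beta-Ac (8.92 ± 0.81) and 4-hour clinical drug (4.70 ± 0.88). The last step, from 8.92 to 4.70 CPM, was a called difference. The steps on either side of control were not called, and the step from 11.2 to 8.92 CPM was not tested. NFKBIE had the same order at the bottom, with 19.3 ± 4.24 CPM at 6 hours after Beta-Ac and 12.1 ± 2.38 CPM at 4 hours after the clinical drug.

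Across the 15 lung libraries, RELB and NFKBIE had the most alike patterns of any pair of members. Of all tested genes with a symbol, NFKBIE had the highest Pearson r with RELB on the log2 CPM scale (r = 0.97, Spearman rho = 0.92). Over the 12 libraries outside the 4-hour group the value was r = 0.88 (rho = 0.84), and over the 9 control and 5-day libraries r = 0.89 (rho = 0.80). After NFKBIE, the genes most like RELB were IRF8, a transcription factor of myeloid and B cells (r = 0.96), and FEZ1 (r = 0.92). The genes most like NFKBIE after RELB were IRF1, an interferon regulatory factor (r = 0.93), and FLNC, a filamin (r = 0.92). Over the 9 control and 5-day libraries, r with RELB was 0.66 for IRF8 and 0.09 for FEZ1. Over the same libraries, r with NFKBIE was 0.67 for IRF1 and 0.50 for FLNC.

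The gene most like NFKBIA was FKBP5, a chaperone partner that is a standard readout of glucocorticoid receptor activity (r = 0.99, rho = 0.93). It was followed by LAMB1, a laminin chain (r = 0.98), and KLF15, a glucocorticoid-responsive transcription factor (r = 0.98). FKBP5 was 18.9, 31.2 and 106 CPM in Beta-Ac replicates 1, 2 and 3 at 6 hours, the order in which NFKBIA was 172, 224 and 342 CPM. FKBP5 was between 5.27 and 5.83 CPM in controls and between 120 and 219 CPM at 4 hours after the clinical drug. Over the 9 control and 5-day libraries, r between NFKBIA and FKBP5 was 0.67. NFKBIA ran against RELB (r = −0.83) over all 15 libraries. These values describe libraries that share treatment groups, so they carry no test.

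**Figure D3:**
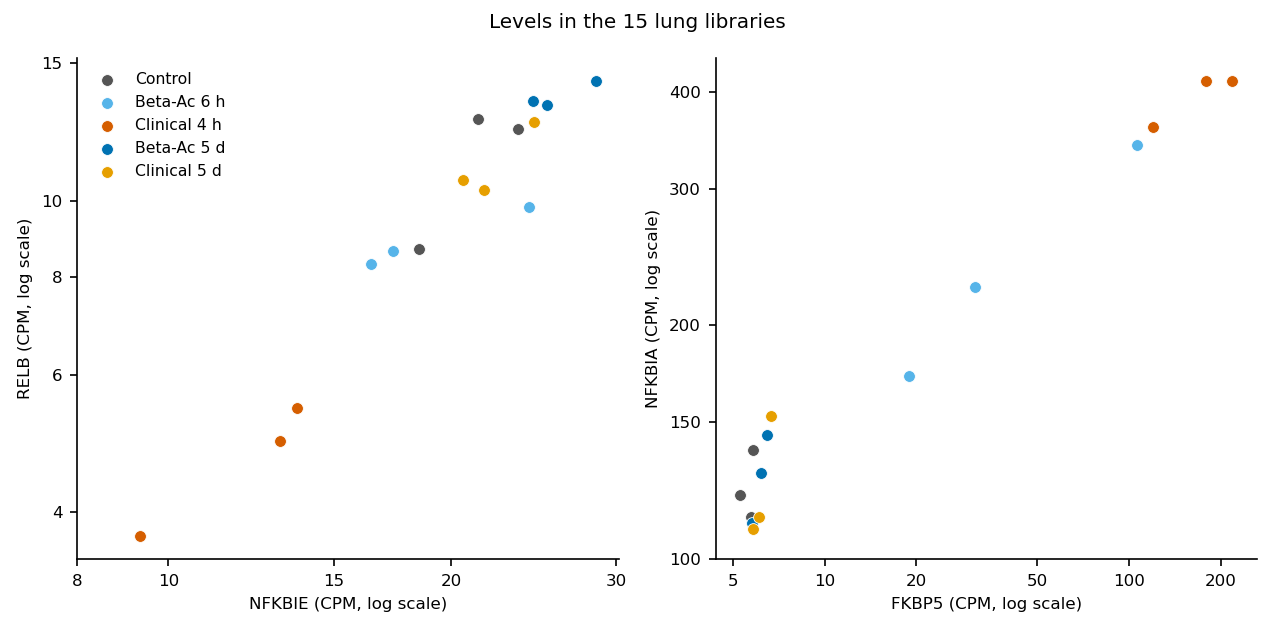
Levels of RELB against NFKBIE and of NFKBIA against FKBP5 in the 15 lung libraries, in CPM on log axes, with 1 point per fetus coloured by group. The 4-hour clinical drug libraries sit at the low end for RELB and NFKBIE and at the high end for NFKBIA and FKBP5, and the 6-hour Beta-Ac libraries are spread between 18.9 and 106 CPM of FKBP5.

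The rest of the pathway was read from lists of its other genes in lung. Of 11 tested genes of other NF-κB inhibitors, such as NFKBIB (IκBβ) and the deubiquitinase CYLD, none was called early after either drug by edgeR or DESeq2, and none had an unadjusted p under 0.05. Their median log2 fold change was 0.03 after the clinical drug and −0.01 after Beta-Ac, where all genes had medians of 0.02 and 0.02.

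Of 15 tested ligands and receptors upstream of NF-κB, 12 had a negative log2 fold change 4 hours after the clinical drug, and the list's median was −0.36. In all, 4 were called lower and 0 higher, where 3.94% and 3.46% of all genes were, and DESeq2 gave the same counts. An unadjusted p under 0.05 was found for 7 genes of the list, 1 higher and 6 lower, and for 18.7% of all genes. LTB encodes lymphotoxin β, a ligand of the non-canonical arm. It was 0.509, 0.299 and 0.438 CPM at 4 hours and 1.90, 2.94 and 1.31 CPM in controls. These levels rest on few reads, 22, 4 and 7 at 4 hours and 32, 43 and 26 in controls. The log2 fold change of LTB was −2.23 (SE 0.37, adjusted p = 0.0016). TNFRSF1B, a receptor for tumor necrosis factor, was 26.0, 21.0 and 25.6 CPM against 44.7, 42.9 and 33.3 CPM in controls, at −0.73 (SE 0.16, adjusted p = 0.011). LTB is made mainly by lymphocytes, and the lower summed level of lymphocyte markers given above was measured in the same libraries. The part of these cells in the value of LTB was not tested.

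The receptors for microbial products TLR3 and TLR4 were also called lower at 4 hours, at −1.10 (SE 0.36, adjusted p = 0.062) and −1.08 (SE 0.40, adjusted p = 0.096). TLR3 lost its call without any 1 of clinical drug replicates 1, 2 and 3 or controls 2 and 3, with adjusted p between 0.10 and 0.20. TLR4 lost it without any 1 of controls 1, 2 and 3 or clinical drug replicates 2 and 3, with adjusted p between 0.11 and 0.23. Its value moved from −0.76 without clinical drug replicate 2 to −1.86 without clinical drug replicate 1. After Beta-Ac none of these 4 was called. The receptor IL1R1 was called higher there, at 63.7, 62.7 and 69 CPM against 40.3, 35.1 and 44.3 CPM in controls (log2 fold change 0.70, SE 0.16, adjusted p = 0.081). That call was lost without any 1 of the 6 libraries apart from Beta-Ac replicate 2, with adjusted p between 0.11 and 0.41.

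Among 18 kinases and adaptors that carry the signal to the inhibitors, 1 was called higher and 1 lower at 4 hours after the clinical drug, near the shares of all genes called in each direction (3.46% and 3.94%). IRAK1, a kinase below the interleukin-1 and Toll-like receptors, was 51.0, 51.9 and 50.4 CPM against 30.4, 30.9 and 36.7 CPM in controls (log2 fold change 0.64, SE 0.11, adjusted p = 0.0023). Without control 1 it was 0.58, just under the fold threshold. TRAF3, which restrains the non-canonical arm, was 4.19, 4.19 and 5.07 CPM against 7.73, 7.87 and 6.83 CPM in controls (−0.74, SE 0.20, adjusted p = 0.031). After Beta-Ac none was called by edgeR or DESeq2, and 1 had an unadjusted p under 0.05.

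Known NF-κB target genes did not share a direction. Of 16 tested, 2 were called higher and 3 lower at 4 hours after the clinical drug, where 3.46% and 3.94% of all genes were, and the list's median log2 fold change was 0.00. CCL2, a monocyte-attracting chemokine, was 2.92, 1.42 and 3.76 CPM against 13.5, 14.4 and 10.3 CPM in controls, at −2.22 (SE 0.42, adjusted p = 0.0042). IRF1 was lower at −0.80 (SE 0.17, adjusted p = 0.0090).

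The third target called lower was VCAM1, an adhesion molecule of activated endothelium, at −0.75 (SE 0.24, adjusted p = 0.061). Its call was lost without any 1 of clinical drug replicates 2 and 3 or control 3, with adjusted p of 0.18, 0.13 and 0.27, and without control 3 the value was −0.46. GADD45B, a stress-response gene, was higher at 1.76 (SE 0.41, adjusted p = 0.015), and BCL2L1, which encodes the survival protein BCL-XL, at 1.05 (SE 0.14, adjusted p = 0.00044). BCL2L1 was also called higher after Beta-Ac, at 0.72 (SE 0.14, adjusted p = 0.052). That second call was lost without any 1 of the 3 controls or Beta-Ac replicate 3, with adjusted p between 0.14 and 0.27.

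Glucocorticoid targets with no part in the NF-κB lists were measured beside them. Of 8 listed, 4 were matched and tested, and FKBP5, ZBTB16 and PER1 were called higher early after both drugs. Of all genes, 3.46% were called higher after the clinical drug and 0.368% after Beta-Ac. The log2 fold changes of these 3 were 4.94, 4.43 and 2.30 after the clinical drug and 3.21, 3.72 and 1.79 after Beta-Ac. They exceeded the value of NFKBIA in either group. The remaining gene did not, at 0.78 after the clinical drug and 0.39 after Beta-Ac, and was not called.

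**Figure D4:**
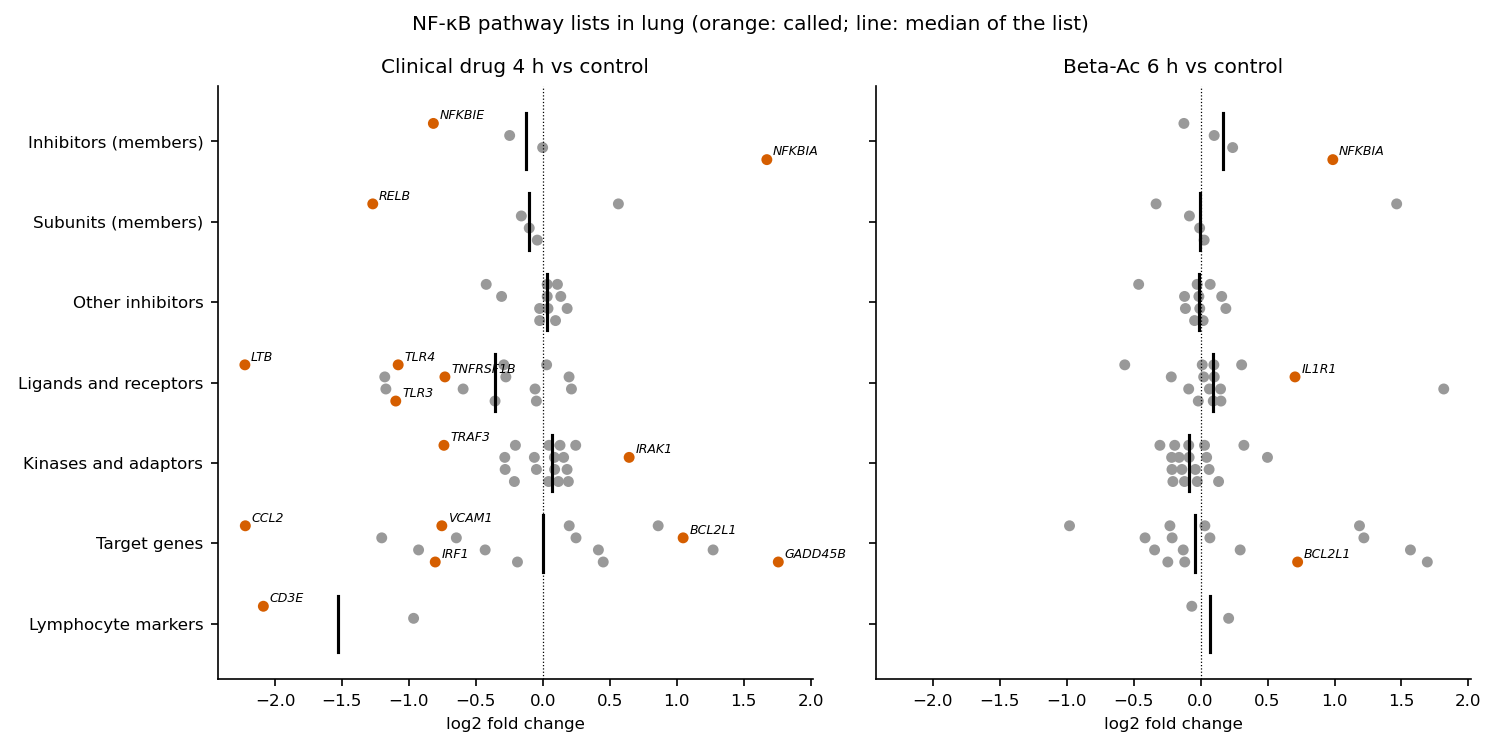
Log2 fold change against control of each tested gene of the NF-κB lists and the lymphocyte markers, 4 hours after the clinical drug and 6 hours after Beta-Ac. Each point is a gene, orange points were called, and the vertical line is the median of the list. Called genes lie in both directions among the targets, while those among ligands and receptors after the clinical drug lie below 0.

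The third question was whether the members differed in the hippocampus 5 days after treatment. None of the 9 was called after either drug or between the drugs by edgeR or DESeq2. Of all genes tested, 7.86% were called after the clinical drug, and 0% after Beta-Ac and between the drugs. An unadjusted p under 0.05 was reached by 3 members after the clinical drug (TNIP1, NFKB2 and REL), where 30.6% of all genes reached it. It was reached by 0 members and 12.3% of all genes after Beta-Ac, and by 1 member (TNIP1) and 13.5% of all genes between the drugs.

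TNIP1 was 32.9, 35.3, 32.6, 31.9 and 40.6 CPM in the control hippocampi and 23.8, 25.6, 24.8, 25.5 and 25.2 CPM after the clinical drug. Every clinical drug library was below every control, as 10% of all genes were in this comparison. After Beta-Ac the values were 33.9, 22.9, 23.7, 34.7 and 37.5 CPM, so that 2 fetuses were at the level of the clinical drug and 3 at the level of control. The log2 fold change against control was −0.47 (SE 0.13, adjusted p = 0.033) after the clinical drug, which passed the p thresholds but not the fold threshold, and −0.18 (SE 0.13, adjusted p = 0.60) after Beta-Ac. The interval of the first, from −0.76 to −0.19, includes the fold threshold.

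Sequencing run, as the labels name it, differed between these groups, since 3 of the 5 controls came from runs that held no treated fetus. With run as a term the log2 fold change of TNIP1 was −0.51 (adjusted p = 0.081). Within the 2 runs that held all 3 groups it was −0.53 (adjusted p = 0.17). Both values lean on control replicates 3 and 5, the controls of those runs. Replicate 5 had the highest TNIP1 of the controls, at 40.6 CPM.

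NFKB2 was 5.51, 6.07, 7.5, 5.35 and 13.7 CPM in controls and 4.47, 4.94, 5.75, 4.99 and 5.58 CPM after the clinical drug. Control replicate 5 stood apart. In the same library FOLR1, a marker of choroid plexus epithelium, was 326 CPM, against at most 3.32 CPM in the other 14 hippocampus libraries. FOLR1 was the only 1 of 3 listed markers of that tissue that matched. The part of that tissue in the value of NFKB2 was not tested. The log2 fold change of NFKB2 against control was −0.57 (SE 0.25, adjusted p = 0.14), and without that library −0.25 (adjusted p = 0.38). With run as a term it was −0.94 (adjusted p = 0.053), which would be a call. Only control replicates 3 and 5 shared a run with treated fetuses. The run-adjusted value therefore leans on the control library that stood apart.

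REL was 0.651, 0.778, 0.682, 1.19 and 1.00 CPM in control hippocampi, 0.686, 0.536, 0.648, 0.193 and 0.475 CPM after Beta-Ac and 0.541, 0.412, 0.810, 0.219 and 0.310 CPM after the clinical drug. The groups overlapped. Its log2 fold change was −0.89 (SE 0.38, adjusted p = 0.12) after the clinical drug and −0.76 (SE 0.37, adjusted p = 0.41) after Beta-Ac.

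The 3 genes called in lung showed no such differences in hippocampus at 5 days. NFKBIA lay between 21.7 and 27.9 CPM over all 15 hippocampus libraries, with a log2 fold change of −0.01 (interval −0.21 to 0.18) after the clinical drug and 0.11 (interval −0.08 to 0.30) after Beta-Ac. For RELB the values were −0.22 (interval −0.57 to 0.14) and −0.02 (interval −0.37 to 0.33). NFKBIE was −0.09 (interval −0.34 to 0.15) and −0.05 (interval −0.29 to 0.19). No hippocampus library was taken within hours of treatment, so the early lung values have no counterpart there.

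Of the pathway lists in hippocampus after the clinical drug, the inhibitor CYLD was called lower (log2 fold change −0.59, SE 0.16, adjusted p = 0.027) and the adaptor TAB3 lower (−1.0, SE 0.31, adjusted p = 0.044), each the only call in a list of 12 and 18 tested genes, near the 7.86% of all genes called. Mean CYLD was 29.4 CPM in controls, 19.5 CPM after Beta-Ac and 19.4 CPM after the clinical drug. Mean TAB3 was low, at 1.72, 0.866 and 0.857 CPM in the same order. Neither gene was called after Beta-Ac, although its means were as low as those of the clinical drug. With DESeq2, CYLD was −0.58 after the clinical drug, under the fold threshold, and the 1 call in its list was RNF11, higher. RNF11 was 0.58 (adjusted p = 0.11) with edgeR, which did not call it. The receptors TLR4 (0.75, SE 0.21, adjusted p = 0.034) and TLR3 (0.86, SE 0.32, adjusted p = 0.090) were called higher. These were 2 of 12 tested ligands and receptors, where 2.5% of all genes were called higher. DESeq2 called both as well, and IL1R1 lower. With run as a term none of these 4 was called, with values of −0.35, −0.84, 0.44 and 0.75 and adjusted p between 0.21 and 0.35. With 1 library left out at a time, CYLD lost its call without any 1 of controls 1 and 4 or clinical drug replicates 3, 4 and 5, with log2 fold changes between −0.58 and −0.49. TLR3 lost it without any 1 of controls 1 to 4 or clinical drug replicates 1, 2 and 3, with adjusted p between 0.12 and 0.22, and TAB3 without clinical drug replicate 3 (adjusted p = 0.10). TLR4 is made by microglia in brain. The microglial marker P2RY12, the only 1 of 4 listed that matched, was also called higher, at 0.85. Of the macrophage markers, 3 were tested and none was called, with log2 fold changes from −0.12 to 0.05. The part of these cells in the value of TLR4 was not tested.

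**Figure D5:**
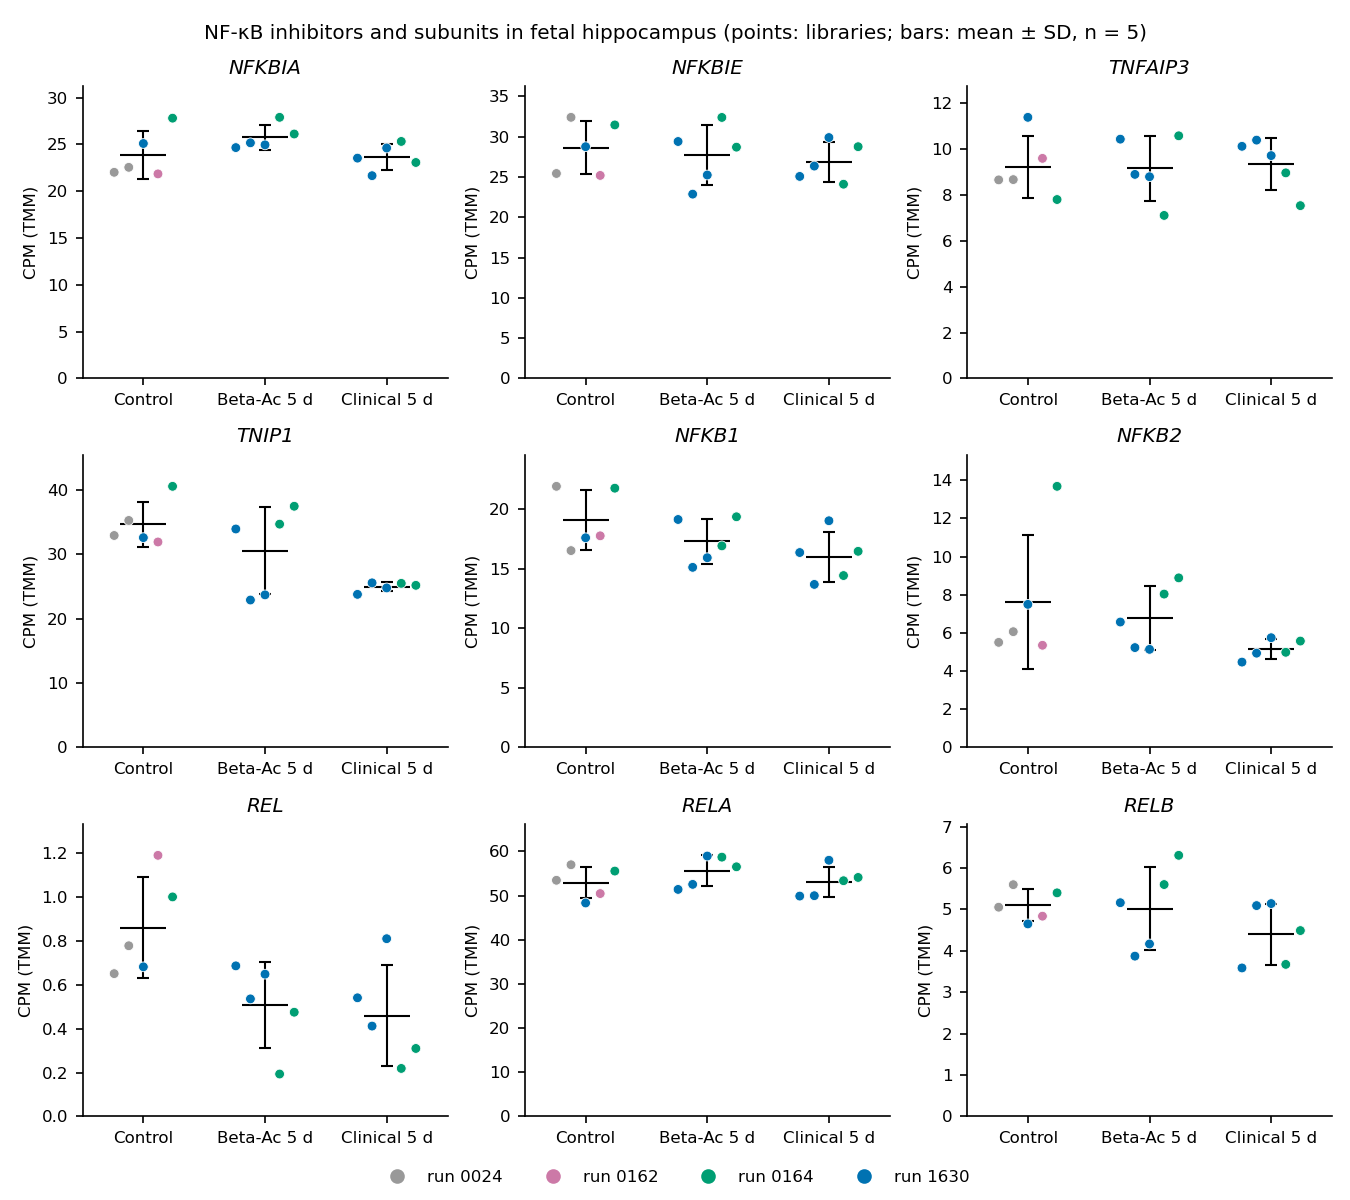
Level of each of the 9 measured NF-κB genes in the 15 hippocampus libraries, in CPM from 0 on the vertical axis, by treatment, with points coloured by sequencing run and bars showing the mean ± SD of 5. The clinical drug libraries of TNIP1 lie between 23.8 and 25.6 CPM, below all controls, and 1 control of NFKB2 stands apart at 13.7 CPM.

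Set side by side, members that were abundant in lung were not all so in hippocampus. Over all libraries NFKBIA was between 109 and 413 CPM in lung and between 21.7 and 27.9 CPM in hippocampus. NFKB2 was between 71.7 and 90.3 CPM in lung and between 4.47 and 13.7 CPM in hippocampus. NFKBIE was between 9.33 and 28.5 CPM in lung and between 22.9 and 32.4 CPM in hippocampus. The tissues were counted in separate tables with different identifier sets, so tissue and table cannot be told apart and no test was made.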

How the data were processed

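Whole fetal lung (15 libraries) and hippocampus (15 libraries) were analysed as the raw gene counts the authors deposited, 1 table per tissue. According to the study's methods, paired-end reads were aligned to rhesus build MMUL1.0 with Bowtie 2 and counted with featureCounts. The submitters' processing notes for lung name Bowtie 1.2.1.1 and featureCounts 1.5.1 instead. The strand setting was not given in the sources used here, so reads of overlapping antisense genes cannot be told apart. Symbols came from an Ensembl identifier table, which named 15769 lung and 17621 hippocampus identifiers.

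The members, lists and tests were chosen with earlier results of these data known. Genes with at least 7 reads in 3 lung or 5 hippocampus libraries were kept (17644 and 17390). One edgeR 4.0.16 quasi-likelihood fit per tissue (R 4.3.3, TMM) gave every comparison. A call needed a 1.5-fold difference or more with p below 0.05. The adjusted p had to be below 0.1 and was Storey's q in lung and Benjamini-Hochberg in hippocampus. Likeness used log2 CPM with a prior count of 2. The text names all members, the 3 genes most like each called member, and the listed genes called early in lung, at most 3 per list and direction by size. TNFRSF1B, the listed genes called in hippocampus, and markers outside the NF-κB lists were added after their values were seen. A further lymphocyte marker is not reported here. The script was tested on simulated data. Alternatives were DESeq2 1.42.0, RLE scaling, other filters and adjustments, no fold threshold, fits of only the compared groups, run terms, the treatment field, and leaving out each library. Within a tissue, each library is a separate fetus.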

Additional observations from a re-analysis of the deposited data

Results flagged for a closer look

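In the hippocampus, NFKB2 in control replicate 5 was 13.7 CPM, far above the other 4 controls, with a gap to the nearest of 0.743 of the group's range against a critical value of 0.71. This was the only flag among 27 gene and group pairs, and chance flags about 1 in 20 groups. The same library held 326 CPM of FOLR1, the only choroid plexus marker that matched. The part of choroid plexus in the NFKB2 value was not tested.

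The response in lung differed between the drugs' early groups, by a test of the difference itself. The 4-hour clinical drug group minus the 6-hour Beta-Ac group was 0.69 for NFKBIA, −0.94 for RELB and −0.69 for NFKBIE on the log2 scale.

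The response to the clinical drug also differed between 4 hours and 5 days, again by a test of the difference. The earlier minus the later group was 1.66 for NFKBIA, −1.26 for RELB and −0.89 for NFKBIE.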

How the results depend on the processing

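The 3 calls at 4 hours against control were kept under all 7 alternatives and with each of the 6 libraries left out. None of the recomputed results changed direction. Between 6 hours and 5 days of Beta-Ac, where the count was 0, it was 1 without a filter on low counts and 2 with DESeq2, and it ranged from 0 to 1 with 1 library left out. At 6 hours of Beta-Ac against control, the count of 1 became 0 when only these groups were fitted, and ranged from 0 to 1 with 1 library left out. Between the early groups of the drugs, the count of 3 became 0 when only these groups were fitted, and ranged from 2 to 3 with 1 library left out. NFKBIA lost this call without Beta-Ac replicate 1 (adjusted p = 0.12). In hippocampus after the clinical drug, the count of 0 became 1 with Storey's q (REL), with no fold threshold (TNIP1), with only these groups fitted (REL) and with run as a term (NFKB2), and ranged from 0 to 1 with 1 library left out. REL was the member called without clinical drug replicate 3. Over all genes, the number called at 6 hours of Beta-Ac against control was 78, against 247 with DESeq2 and 19 with only these groups fitted. With groups taken from the conflicting treatment field, TNIP1 was −0.18 for the clinical drug against control. The cause of these changes was not tested. Replicate numbers follow accession order and do not mark pairs. Within a tissue the labels pair no fetuses across groups, so no paired analysis of these groups was possible. The 9 fetuses with a library in both tissues were not analysed as pairs. The 3 fetuses per lung group and the low counts of REL limit what can be detected.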
